A study of Mus musculus with 10 samples.

Results

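Transcription elongation factors are the proteins that decide whether RNA polymerase II, once it has started, stays paused near the start of a gene or travels on through it. Here they are a list of 35 genes chosen by name: the P-TEFb kinase and its inhibitors, the super and little elongation complexes, NELF, DSIF, the PAF complex, Spt6 and Iws1, FACT, TFIIS and the kinases Cdk12 and Cdk13. All 35 had a row among the 24520 genes of the table, and 34 of them were among the 11956 genes that were tested. Testing required 1 RPKM (reads per kilobase of transcript and per M, or mega, mapped reads) in at least 2 of the 10 libraries, which Eaf2 did not reach.

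The cells were V6.5 mouse embryonic stem cells (ESCs) and the neural progenitor cells derived from this line, NPCs in the labels, and their RNA was sequenced. ESCs grew on irradiated mouse embryonic fibroblasts in serum with leukemia inhibitory factor. NPCs were made through 4 days of embryoid body formation, plated as a monolayer in ITSF medium, transfected on day 5 and harvested on day 8; for the ESC samples the labels give no other times. ESCs received a control siRNA against luciferase or a siRNA against Cbx3, and NPCs received one of these or a siRNA against Med26, so that every library, the controls included, comes from transfected cells of 1 line. Cbx3 encodes HP1 gamma, a chromodomain protein found in heterochromatin and on transcribed genes, and Med26 encodes a Mediator subunit known to bring elongation factors to promoters. The 10 libraries form 5 groups of 2. The labels call the replicates biological but do not say that they came from separate differentiations, so that a p-value here reflects only how these samples vary, which may be technical.

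As background, polymerase pauses soon after initiation with NELF and DSIF bound to it. P-TEFb, the kinase Cdk9 with a cyclin T, phosphorylates both and the polymerase tail and so releases the pause, and Hexim1 and Larp7 hold P-TEFb inactive on the 7SK RNA. The super elongation complex carries active P-TEFb to genes, and the PAF complex, Spt6 and FACT travel with the polymerase and handle the nucleosomes in its way.

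A few promoters are shown because their genes passed the test in comparisons described below: Hexim1 and Zc3h8 had the largest differences that passed between the siRNAs, and Ell3 and Cdc73 were the genes that passed between NPCs and ESCs. Each runs 5′ to 3′ over 300 bases of build GRCm38.p6, most of them before the RefSeq start of the gene and the last ones in its first exon. Capitals mark matches, on either strand, to the letters GGGCGG (GC box), CCAAT (site of NF-Y), GCGCATG (site of NRF1) and TATAAA (a core promoter element). The windows lie at chr11:103116075-103116374 on the plus strand for Hexim1, and on the minus strand at chr2:128943971-128944270 for Zc3h8, chr2:121442552-121442851 for Ell3 and chr1:143702844-143703143 for Cdc73.
Hexim1: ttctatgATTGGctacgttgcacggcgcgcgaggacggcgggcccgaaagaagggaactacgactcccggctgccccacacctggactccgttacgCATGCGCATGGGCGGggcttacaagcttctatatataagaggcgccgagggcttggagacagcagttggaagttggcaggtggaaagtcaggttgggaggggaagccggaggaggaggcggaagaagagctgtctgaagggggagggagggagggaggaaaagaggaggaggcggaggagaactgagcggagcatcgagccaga
Zc3h8: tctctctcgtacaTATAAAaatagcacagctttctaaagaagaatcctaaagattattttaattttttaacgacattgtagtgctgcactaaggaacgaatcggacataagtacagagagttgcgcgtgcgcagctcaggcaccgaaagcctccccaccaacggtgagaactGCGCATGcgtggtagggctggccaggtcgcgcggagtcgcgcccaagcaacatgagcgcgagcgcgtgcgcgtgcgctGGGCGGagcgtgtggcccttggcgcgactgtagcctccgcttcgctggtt
Ell3: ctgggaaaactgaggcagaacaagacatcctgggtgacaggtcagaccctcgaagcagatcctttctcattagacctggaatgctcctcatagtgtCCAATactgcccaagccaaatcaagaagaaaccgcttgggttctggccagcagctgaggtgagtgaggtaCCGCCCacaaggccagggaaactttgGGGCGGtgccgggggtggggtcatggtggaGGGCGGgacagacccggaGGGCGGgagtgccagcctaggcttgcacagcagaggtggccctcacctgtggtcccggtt
Cdc73: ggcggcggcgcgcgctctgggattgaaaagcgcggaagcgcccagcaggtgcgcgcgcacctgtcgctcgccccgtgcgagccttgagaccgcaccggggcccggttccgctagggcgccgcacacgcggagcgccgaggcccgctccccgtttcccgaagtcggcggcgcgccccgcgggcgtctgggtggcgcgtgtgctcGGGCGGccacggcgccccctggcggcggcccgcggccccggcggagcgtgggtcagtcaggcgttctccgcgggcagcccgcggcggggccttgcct
The Hexim1 window holds 2 overlapping NRF1 matches that run into a GC box, and the Zc3h8 window holds 1 NRF1 match and 1 GC box. The TATAAA letters of Zc3h8 lie near the 5′ end of its window, away from the start of the gene. Ell3 has 4 GC boxes, and Cdc73 has 1 in a window of 79.7% G and C.

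Of the 35 genes, 30 matched a promoter of the RefSeq table. GGGCGG was present in 24 of these 30 (80%), against 35.9% of all 27025 promoters of the same length. The windows of these genes had a median of 64.5% G and C, against 52.7% over all promoters, and GGGCGG is itself made of G and C. The cyclic AMP response letters TGACG were in 12 of 30 (40%, against 21% of all), the ETS letters CCGGAAG in 9 (30%, against 9.1%), CCAAT in 11 (36.7%, against 37.9%), AAGATGG (YY1) in 5 (16.7%, against 6.5%), GCGCATG in 3 (10%, against 4%), and CACGTG (E-box) and TATAAA in 2 each (6.7%, against 7.2% and 14.2%). A match says only that the letters are in this window. The set of all promoters was not limited to the 11956 genes tested here, whereas of the listed genes all but Eaf2 were tested. These shares thus do not set the elongation genes against other expressed genes.

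For the series as a whole, the step between low RPKM values corresponds to about 23.2 to 63.7 M reads per library. Replicates correlated over genes at 0.949 in both ESC groups and at 0.995 to 0.996 in the 3 NPC groups, and the ESC replicates stand apart from each other. Cbx3 was 14.0 and 56.4 RPKM in ESC control, 1.01 and 1.96 RPKM in ESC Cbx3 siRNA, 9.37 and 9.65 RPKM in NPC control libraries, and only 0.425 and 0.248 RPKM in NPC Cbx3 siRNA. Med26 was 7.56 and 6.78 RPKM in NPC control, compared with 3.04 and 3.07 RPKM in NPC Med26 siRNA, so each target was lower in every library that received its siRNA. The summed RPKM of 8 neural progenitor markers was 41.0 to 60.9 in NPCs and 11.5 to 25.2 in ESCs, that of 8 pluripotency markers was 440 to 579 in NPCs and 462 to 888 in ESCs, and that of 8 fibroblast markers of the feeders was 49.6 to 74.7 in ESCs and 5.84 to 9.39 in NPCs. The pluripotency sums overlap, and Pou5f1 made up most of each (484 and 497 RPKM in NPC control), whereas 5 of the 8 genes were lower in NPC control, such as Esrrb, at 53.4 and 13.7 RPKM in ESC control and 1.18 and 0.913 RPKM in NPC control. Of the 4 neural progenitor markers tested, 3 were higher in NPC control, and the other 4 of the 8 neural progenitor markers (Hes5, Pax3, Zic1 and Fabp7) did not pass the filter on low values. In bulk RNA, fewer cells of a type and less RNA per cell cannot be told apart.

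Nearly all of the elongation machinery was expressed at every stage, and the steady-state levels spanned a wide range. The FACT histone chaperone was by far the most abundant per length: Ssrp1 ranged from 127 to 182 RPKM and its partner Supt16 from 102 to 139 RPKM over the 10 libraries. In all, 30 of the 35 genes averaged above 5 RPKM, 23 averaged above 10 RPKM, and 29 stayed within 2-fold from their lowest to their highest library.

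The P-TEFb subunits lay close to each other, with the kinase Cdk9 at 7.54 to 11.2 RPKM and its cyclins Ccnt1 at 11.3 to 14.5 RPKM and Ccnt2 at 10.8 to 18.1 RPKM. Of the P-TEFb inhibitors, Hexim1 ranged from 8.45 to 16.1 RPKM and Larp7, which binds the 7SK RNA, from 23.5 to 36.8 RPKM. NELF, the pausing factor, ranged from 14.9 to 23.3 RPKM for Nelfa, 21.1 to 30.5 RPKM for Nelfb, 21.9 to 30.3 RPKM for Nelfcd and 23.5 to 32.7 RPKM for Nelfe. Nelfb, Nelfcd and Nelfe thus lay at like levels per length, at 27.1, 26.6 and 29.4 RPKM on average. Nelfa lay lower, at 19.3 RPKM on average. Of DSIF, Supt4a ranged from 16.7 to 31.6 RPKM and Supt5 from 23.0 to 34.1 RPKM.

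In the super elongation complex, the scaffold Aff4 was at 22.0 to 32.2 RPKM and its paralog Aff1 at 1.09 to 2.38 RPKM. The elongation stimulators of the ELL family were at 10.5 to 13.9 RPKM for Ell2, 3.95 to 6.87 RPKM for Ell and 3.50 to 8.96 RPKM for Ell3. The ELL partner Eaf1 was at 8.80 to 13.7 RPKM, whereas Eaf2 stayed at 0.0517 to 0.279 RPKM. The chromatin readers Mllt1 (ENL) and Mllt3 (AF9) were at 3.46 to 7.77 RPKM and 0.513 to 1.33 RPKM. In the AFF, EAF and ENL/AF9 pairs 1 paralog supplied most of the RNA: Aff4 made up 90.6% to 96.4% of Aff1 and Aff4 together, Eaf1 97.0% to 99.6% of both Eaf genes, and Mllt1 77.6% to 92.7% of Mllt1 and Mllt3. The cyclins were nearly even, with Ccnt1 at 41.8% to 53.8% of both, and Cdk12 held 57.4% to 66.0% of Cdk12 and Cdk13. Within the ELL family Ell2 led with 51.4% to 57.1% in ESC libraries and 43.2% to 49.7% in NPC libraries, and the share of Ell3 was 16.8% to 25.6% in ESC libraries and 23.4% to 34.1% in NPC libraries, so the ranges overlap.

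The little elongation complex, which serves small nuclear RNA genes, had Ice1 at 9.17 to 12.9 RPKM, Ice2 at 3.72 to 6.68 RPKM and Zc3h8 at 4.62 to 8.71 RPKM. The PAF complex, which couples elongation to histone modification, was uneven. Leo1 ranged from 26.1 to 41.5 RPKM, Ctr9 from 22.1 to 34.2 RPKM and Paf1 from 22.3 to 34.7 RPKM, while Rtf1 (6.89 to 11.2 RPKM) and Cdc73 (3.23 to 6.23 RPKM) lay lower. The histone chaperone Supt6 was at 24.4 to 32.5 RPKM and its partner Iws1 at 7.001 to 9.64 RPKM. Cdk12 and Cdk13, which phosphorylate the polymerase tail farther into genes, ranged from 12.9 to 20.7 RPKM and from 9.54 to 11.5 RPKM. Tcea1 (TFIIS), which rescues backtracked polymerase, had the widest fold range of the 34 tested genes, 9.73 to 41.0 RPKM.

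**Figure D1:**
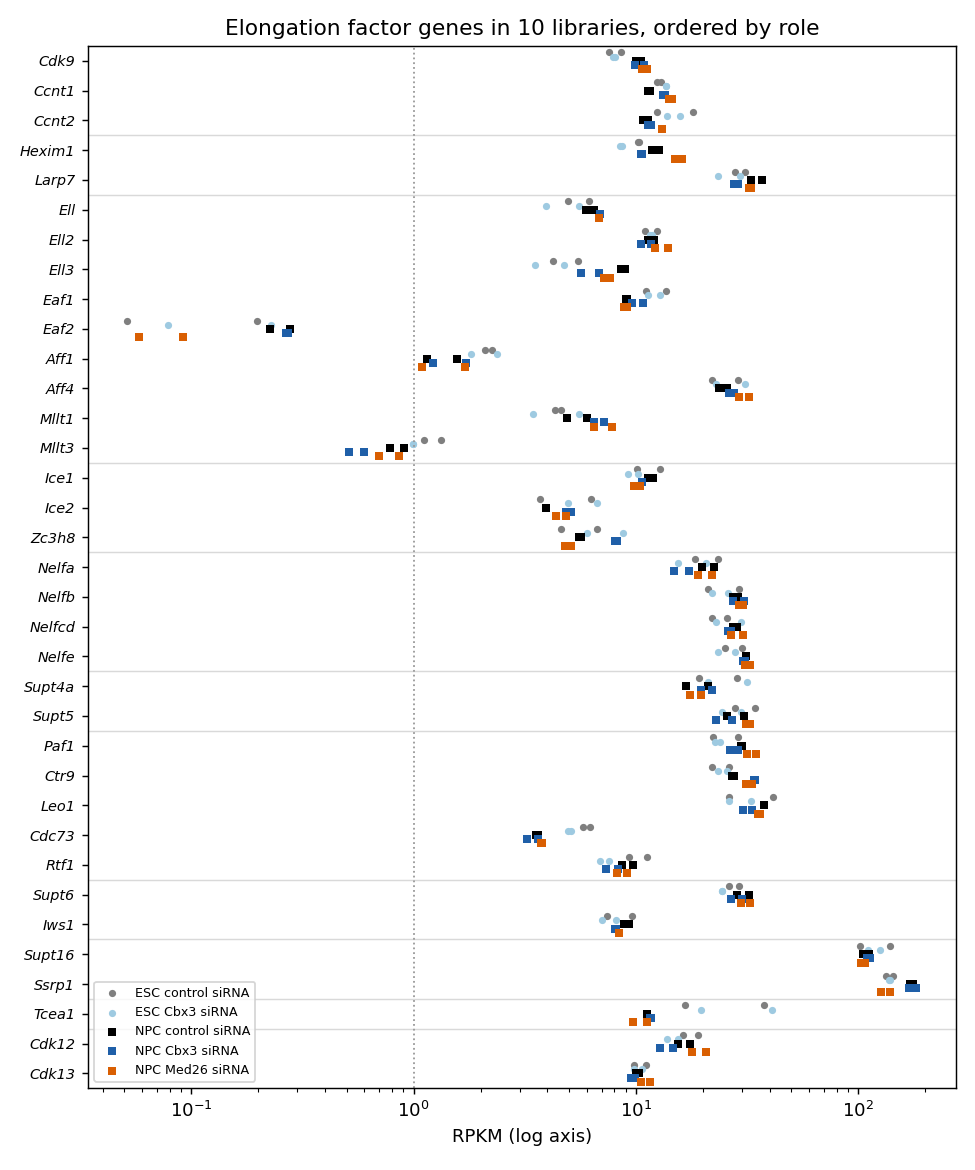
RPKM on a log axis of the 35 elongation factor genes (rows, ordered by role and separated by grey lines) in each of the 10 libraries; circles are ESC libraries, squares NPC libraries, and colours the siRNA groups. Ssrp1 and Supt16 lie above 100 RPKM in all libraries, Eaf2 lies below the dotted line at 1 RPKM in all, and Tcea1 spreads from 9.73 to 41.0 RPKM.

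Neighbouring or overlapping genes can share reads with some of these genes, since neither the strand setting nor the rule for multiply matching reads is given in the sources used here. Exons of Ell3 overlap Serinc4 on the same strand (1.97 RPKM on average), and exons on the opposite strand overlap for Eaf1 and Mettl6, Nelfa and Nsd2, Nelfcd and Ctsz, Supt6 and Sdf2, Supt16 and Rpgrip1, Cdc73 and B3galt2, and Ssrp1 and P2rx3. On average Ctsz was at 44.8 RPKM, Sdf2 at 18.7 RPKM, Rpgrip1 at 17.9 RPKM, Mettl6 at 12.2 RPKM and Nsd2 at 9.59 RPKM, while B3galt2 (0.0896 RPKM) and P2rx3 (0.105 RPKM) were near 0. Tcea1 exons also overlap the gene model Gm37988 on the same strand, which was not matched to a row. Tcea1 has a named processed pseudogene, Tcea1-ps1, so its values are uncertain to the extent that copies shared reads.

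The first question was which elongation factors changed when Cbx3 was lowered in NPCs. Zc3h8 of the little elongation complex and Ctr9 of the PAF complex rose, and the ELL family gene Ell3, the 7SK protein gene Larp7 and the PAF complex gene Leo1 fell. These were 5 of the 34 tested genes (14.7%), against 13.1% of all genes tested at an adjusted p under 0.05 (limma on log2(RPKM + 1), 6 NPC libraries); the 2 that rose compare with 7.8% of all genes higher and the 3 that fell with 5.33% lower. The share is near the background. The median difference of the 34 genes was -0.04 on the log2(RPKM + 1) scale, against 0.01 for all genes, and their differences ranged from -0.43 to 0.47.

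Zc3h8, a zinc finger subunit of the little elongation complex, was 5.65 and 5.56 RPKM in NPC control, compared with 8.06 and 8.25 RPKM after Cbx3 siRNA. Both treated libraries lay above both controls, and the difference of 0.47 on the log2(RPKM + 1) scale (SE 0.07) had an adjusted p of 0.0107 by limma. Its partners did not pass: Ice2 was 3.92 and 3.93 RPKM in control, compared with 5.10 and 4.86 RPKM after Cbx3 siRNA, and Ice1 12.0 and 11.3 RPKM against 10.7 and 10.6 RPKM.

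Ctr9, the scaffold of the PAF complex, was 27.1 and 27.7 RPKM in control, compared with 34.2 and 33.9 RPKM after Cbx3 siRNA (0.30, SE 0.05, adjusted p = 0.0193 by limma). Leo1, a subunit of the same complex, went the other way, from 37.8 and 37.6 RPKM to 30.3 and 33.1 RPKM (-0.24, SE 0.06, adjusted p = 0.0472 by limma). Both passed, so the calls for 2 subunits of 1 complex went in opposite directions. The groups did not overlap for either gene. With 2 libraries a group, non-overlap often arises by chance, so here and in the other comparisons it is description only. Of the other 3, Paf1 was 29.7 and 29.9 RPKM in control, compared with 26.6 and 28.7 RPKM after Cbx3 siRNA, Rtf1 9.74 and 8.63 RPKM against 8.33 and 7.32 RPKM, and Cdc73 3.63 and 3.57 RPKM against 3.61 and 3.23 RPKM, and none passed.

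Ell3, the ELL paralog best known from stem cell enhancers, was 8.54 and 8.96 RPKM in control, compared with 5.67 and 6.82 RPKM after Cbx3 siRNA (-0.43, SE 0.10, adjusted p = 0.0337 by limma). Both treated libraries lay below both controls. Ell was 6.44 and 5.98 RPKM in control, compared with 6.87 and 6.87 RPKM after Cbx3 siRNA, and Ell2 12.0 and 11.3 RPKM against 11.7 and 10.5 RPKM, and neither passed. Larp7, which holds the 7SK RNA, fell from 33.0 and 36.8 RPKM to 28.9 and 27.7 RPKM (-0.29, SE 0.07, adjusted p = 0.0376 by limma). Hexim1 was 11.8 and 12.7 RPKM in control, compared with 10.6 and 10.7 RPKM after Cbx3 siRNA, a difference of -0.19 (SE 0.07) that did not pass (adjusted p = 0.133 by limma).

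None of the 3 P-TEFb genes, the 4 NELF genes, the 2 DSIF genes or the 2 FACT genes passed. Of P-TEFb, Ccnt1 came nearest, at 13.6 and 13.2 RPKM against 11.3 and 11.5 RPKM in control (0.21, SE 0.06, adjusted p = 0.0641 by limma). Of NELF, Nelfa had the largest difference, 17.4 and 14.9 RPKM against 22.5 and 19.7 RPKM in control (-0.37, SE 0.11, adjusted p = 0.078 by limma). FACT levels lay close together: Ssrp1 was 171 and 176 RPKM in control, compared with 169 and 182 RPKM after Cbx3 siRNA, a difference of 0.01 with a 95% interval from -0.15 to 0.18. Simple epithelial markers moved with the siRNA, with a summed RPKM over 7 genes of 473 and 496 in control and 801 and 846 after Cbx3 siRNA, and 4 of the 7 (the keratins Krt7, Krt8, Krt18 and Krt19) rose. Neural progenitor markers summed to 54.3 and 51.0 RPKM in control libraries but to 41.0 and 41.8 RPKM in the knockdown, and 3 of the 4 tested fell, as did 3 of the 8 pluripotency markers. Their part in the changes above was not tested.

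The calls depended on the spread of 2 libraries a group. Leaving out 1 library left 0 of the 34 genes without either NPC control library or without Cbx3 siRNA replicate 1, Ell3 alone without Cbx3 siRNA replicate 2, and Ctr9 and Zc3h8 without either Med26 siRNA library; in the fit of all 10 libraries 0 passed, and 1 of all genes did. The letters GAGAGTT were picked earlier from these same changes, so their shares among all genes are no test. They are in the transcripts of 34.5% of all genes that fell after Cbx3 siRNA in NPCs. Of those that rose 10.8% have them, and of the others 18%. Of the elongation genes, 0 of the 3 that fell, 0 of the 2 that rose and 12 of the other 29 (41.4%) have them. Transcript length, 706 to 12548 bases over these genes, was not taken into account. The part of the letters in the result was not tested.

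With Med26 lowered in NPCs, the P-TEFb cyclin gene Ccnt1 and the P-TEFb inhibitor gene Hexim1 rose. Aff4, the super elongation complex scaffold, and Ctr9 also rose, and the FACT subunit gene Ssrp1 fell. These 5 of 34 (14.7%) compare with 13.4% of all genes called, the 4 that rose with 6.9% of all genes higher and the 1 that fell with 6.46% lower, and the total is again near the background. The median difference of the 34 genes was 0.03, against -0.001 for all genes. Ctr9 was the 1 gene called after both siRNAs; both comparisons use the same control libraries. Between the siRNAs themselves neither Ccnt1 (adjusted p = 0.342 by limma) nor Aff4 (adjusted p = 0.133 by limma) passed, so their calls after Med26 siRNA alone do not show a difference from Cbx3 siRNA.

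Hexim1, which binds and inhibits P-TEFb, was 11.8 and 12.7 RPKM in control, compared with 15.0 and 16.1 RPKM after Med26 siRNA (0.32, SE 0.07, adjusted p = 0.0332 by limma). Ccnt1 rose from 11.3 and 11.5 RPKM to 14.5 and 14.1 RPKM (0.30, SE 0.06, adjusted p = 0.0252 by limma). Both treated libraries lay above both controls for each. Ccnt2, the paralog of Ccnt1, was 10.8 and 11.3 RPKM in control, compared with 13.1 and 13.1 RPKM after Med26 siRNA (0.23, adjusted p = 0.0604 by limma), and Cdk9 was 10.6 and 10.04 RPKM against 10.7 and 11.2 RPKM. Larp7, at 33.0 and 36.8 RPKM in control, compared with 32.2 and 32.8 RPKM after Med26 siRNA, did not pass.

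Aff4 rose from 25.6 and 23.7 RPKM to 32.2 and 29.0 RPKM (0.30, SE 0.07, adjusted p = 0.0457 by limma) and Ctr9 from 27.1 and 27.7 RPKM to 31.3 and 33.2 RPKM (0.23, SE 0.05, adjusted p = 0.0434 by limma). Ssrp1, the DNA-binding FACT subunit, fell from 171 and 176 RPKM to 127 and 139 RPKM (-0.39, SE 0.07, adjusted p = 0.0185 by limma). The groups did not overlap for these 3 genes. The other FACT subunit gene, Supt16, was 105 and 111 RPKM in control, compared with 102 and 107 RPKM after Med26 siRNA, and its difference was -0.05 with a 95% interval from -0.18 to 0.08.

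Of the NELF, DSIF, Spt6 and Iws1, TFIIS, little elongation complex and Cdk12 and Cdk13 genes, 0 passed. Eaf2, not tested, was 0.226 and 0.279 RPKM in control, compared with 0.0580 and 0.0914 RPKM after Med26 siRNA, values at which few reads decide. Simple epithelial markers summed to 681 and 696 RPKM after Med26 siRNA against 473 and 496 RPKM in control, with 6 of 7 higher, and 0 of the 4 tested neural progenitor markers passed. Of the 8 pluripotency markers, 4 were higher and 1, Nanog, lower. The part of these cell types in the changes was not tested. Without either NPC control library or either Med26 siRNA library 0 of the 34 genes passed, without either Cbx3 siRNA library Ccnt1 and Ssrp1 passed, and in the fit of all 10 libraries 0 passed.

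**Figure D2:**
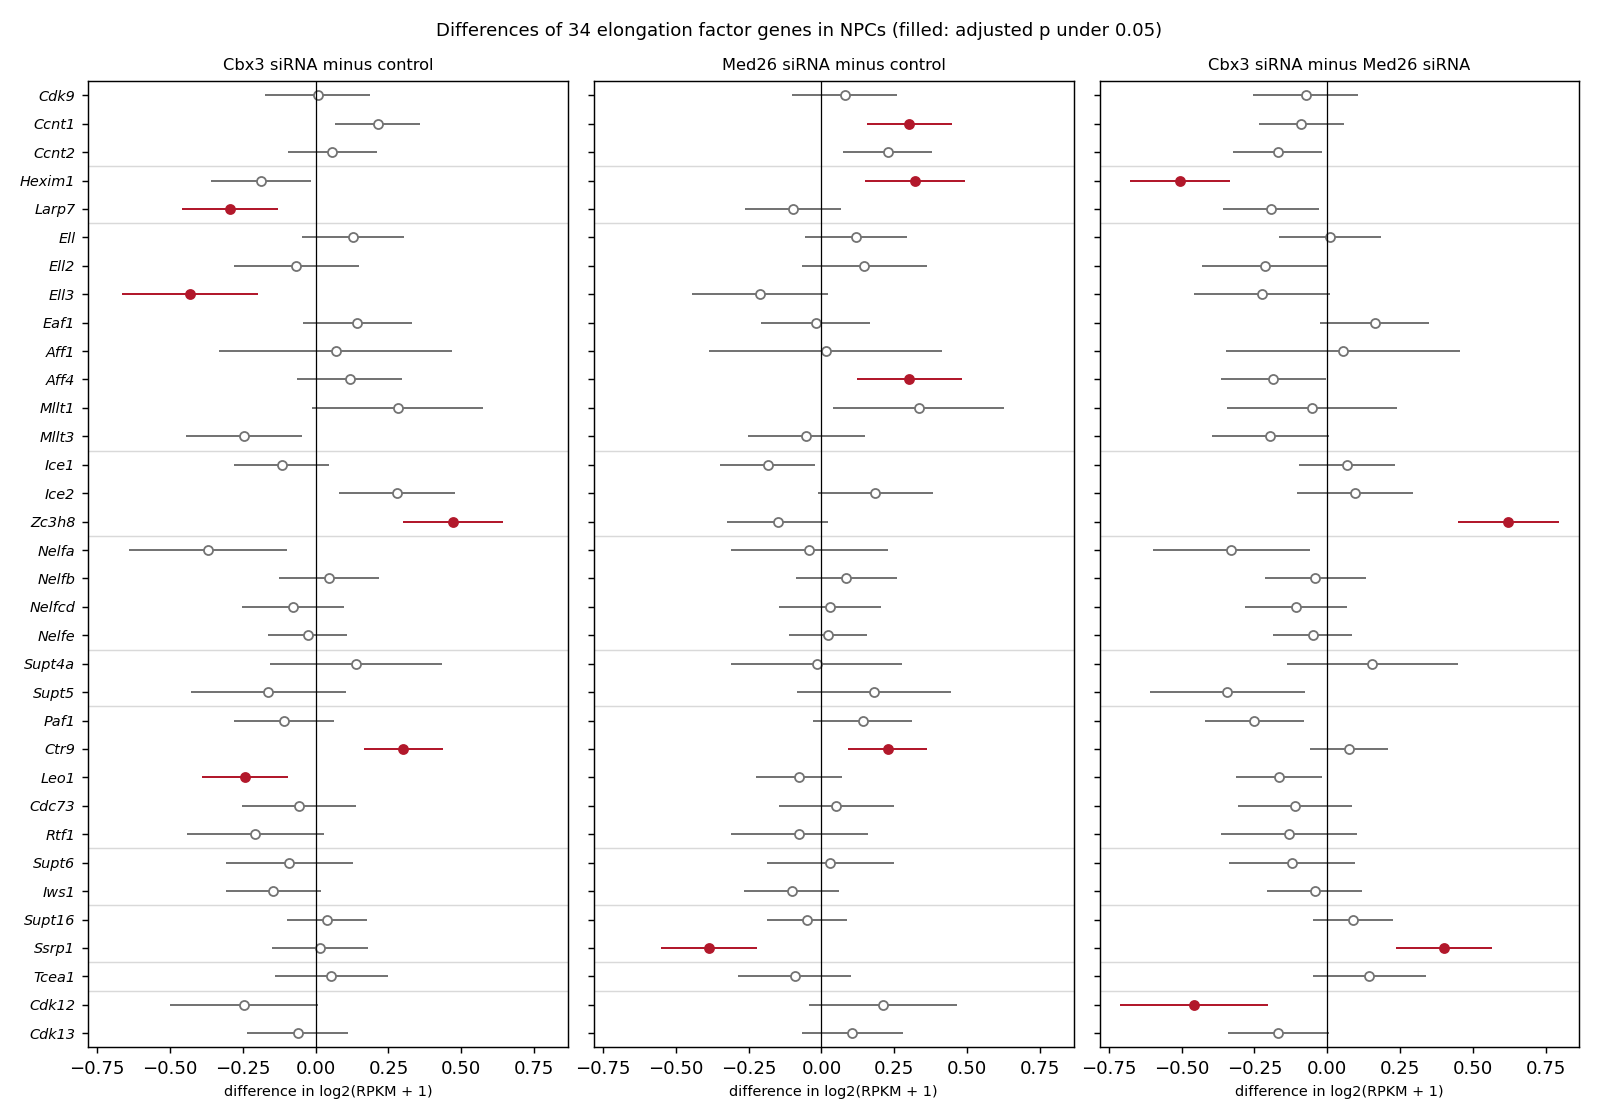
Differences in log2(RPKM + 1) of the 34 tested elongation factor genes in NPCs, with 95% intervals from limma, for Cbx3 siRNA minus control, Med26 siRNA minus control and Cbx3 siRNA minus Med26 siRNA; filled red points passed an adjusted p of 0.05. Hexim1 lies left of 0 in the first panel and right of it in the second, and Zc3h8 the other way round.

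The siRNAs were then compared with each other, which takes the shared controls out of the difference. Zc3h8 was higher after Cbx3 siRNA than after Med26 siRNA, as was Ssrp1, and Hexim1 and Cdk12 were lower. These 4 of 34 (11.8%) compare with 18.3% of all genes called, the 2 higher with 10.4% of all genes and the 2 lower with 7.87%. The median difference of the 34 genes was -0.10, with 23 of them below 0, against 0.01 for all genes. Cell type markers differed as well: 3 of the 4 tested neural progenitor and 5 of the 8 pluripotency markers were lower after Cbx3 siRNA than after Med26 siRNA, and 3 of the 7 simple epithelial markers were higher. Their part in these differences was not tested.

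Zc3h8 was 8.06 and 8.25 RPKM after Cbx3 siRNA and 5.09 and 4.81 RPKM after Med26 siRNA, a difference of 0.62 (SE 0.07, adjusted p = 0.00449 by limma). The control libraries, at 5.65 and 5.56 RPKM, lay between the siRNA groups and nearer to Med26 siRNA. For Hexim1 the order was reversed, with 10.6 and 10.7 RPKM after Cbx3 siRNA, 11.8 and 12.7 RPKM in control libraries and 15.0 and 16.1 RPKM after Med26 siRNA (-0.51 between the siRNAs, SE 0.07, adjusted p = 0.00707 by limma). Hexim1 passed this comparison under each of the 14 alternatives run and Zc3h8 under 13 of them, the exception being the fit of all 10 libraries.

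Ssrp1 was 169 and 182 RPKM after Cbx3 siRNA and 127 and 139 RPKM after Med26 siRNA (0.40, SE 0.07, adjusted p = 0.0119 by limma). Cdk12, a kinase of the polymerase tail, was 14.7 and 12.9 RPKM after Cbx3 siRNA, 17.5 and 15.5 RPKM in control libraries and 20.7 and 17.9 RPKM after Med26 siRNA (-0.46 between the siRNAs, SE 0.10, adjusted p = 0.0302 by limma). Neither gene overlapped between the siRNA groups. Cdk13, the paralog of Cdk12, was 9.90 and 9.54 RPKM after Cbx3 siRNA and 11.5 and 10.6 RPKM after Med26 siRNA and did not pass. Cdk12 was lost without either Cbx3 siRNA library or either Med26 siRNA library, and Ssrp1 without Cbx3 siRNA replicate 2 or Med26 siRNA replicate 1.

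**Figure D3:**
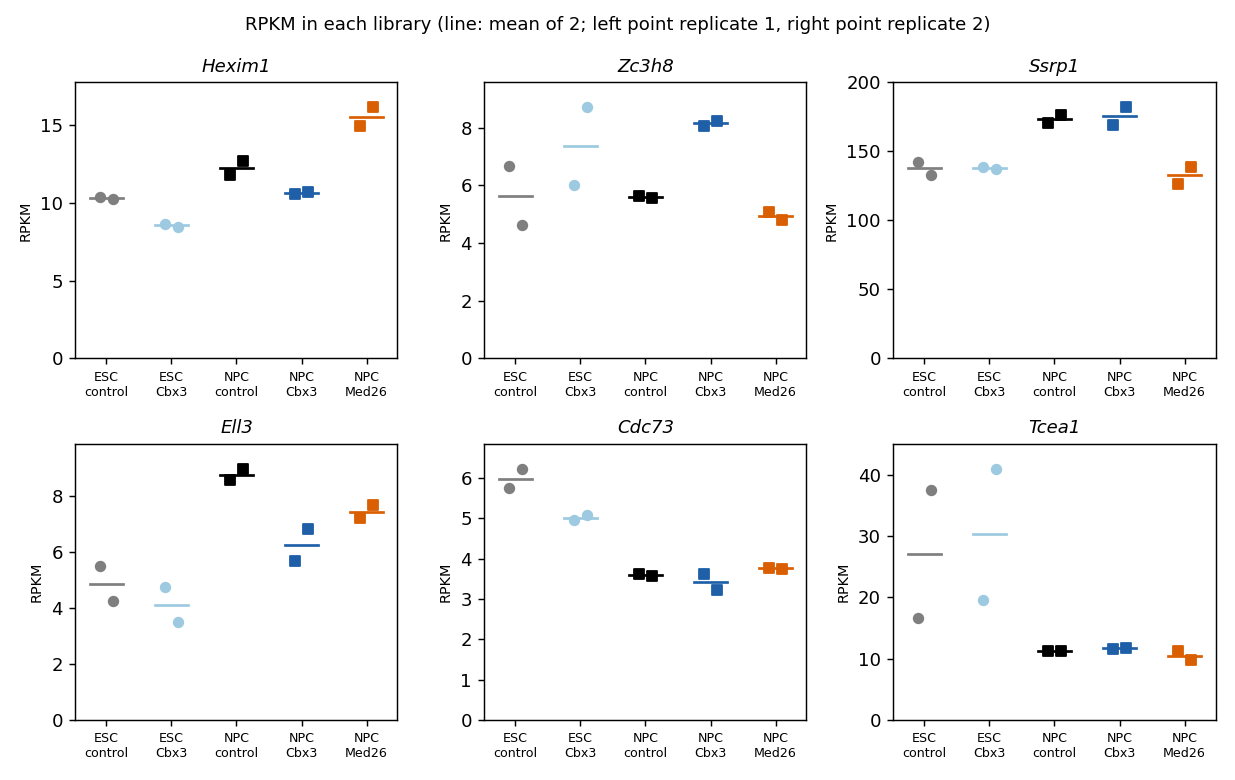
RPKM of 6 elongation factor genes in each library (points; left replicate 1, right replicate 2) with the mean of each group of 2 (line); vertical axes start at 0. Hexim1 is highest in the 2 NPC Med26 siRNA libraries (15.0 and 16.1 RPKM), Zc3h8 replicates of the ESC groups lie far apart, and Tcea1 replicates differ in ESCs (16.6 and 37.6 RPKM in control) but not visibly in NPC control.

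Lowering Cbx3 in ESCs gave no call in the fit without a replicate block. Cbx3 itself did not pass, although its difference of -3.59 on the log2(RPKM + 1) scale was the lowest of all genes tested. The lack of calls therefore does not show that the elongation genes stayed the same. At an adjusted p under 0.05, limma on all 10 libraries called 0 of the 34 genes and 0% of all genes, with 2 of the 34 genes (5.88%) and 645 of all genes (5.39%) at an unadjusted p under 0.05. Residuals in this fit, which pools all 10 libraries, had a median SD of 0.156 on the log2 scale, against 0.0827 in the 6 NPC libraries. The same difference is thus set against a wider spread here than in the NPC fit. Over all genes the median replicate gap was 0.27 in ESC control and 0.26 in ESC Cbx3 siRNA, but 0.09 to 0.10 in the NPC groups. The pooled spread therefore understates that of the ESC libraries. The 34 genes had a median difference of -0.05, against -0.03 for all genes.

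The 3 elongation genes with the largest ESC differences were Rtf1, Zc3h8 and Cdk12. Rtf1, the PAF complex subunit tied to histone H2B ubiquitination, was 11.2 and 9.33 RPKM in ESC control, compared with 7.53 and 6.89 RPKM in ESC Cbx3 siRNA (-0.45, SE 0.12, adjusted p = 0.612 by limma), with no overlap. Zc3h8 was 6.67 and 4.62 RPKM in control, compared with 6.02 and 8.71 RPKM after Cbx3 siRNA (0.33, SE 0.19), and the groups overlapped. Cdk12 was 16.2 and 18.9 RPKM in control, compared with 13.7 and 15.4 RPKM after Cbx3 siRNA, with no overlap (-0.26, SE 0.13, adjusted p = 0.997 by limma). For Rtf1 and Cdk12 alike, non-overlap of so few libraries does not show a difference. Hexim1 was 10.4 and 10.2 RPKM in control, compared with 8.67 and 8.45 RPKM after Cbx3 siRNA, which puts its value below control by 0.24 in ESCs and by 0.19 in NPCs on the log2(RPKM + 1) scale, neither passing.

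Whether the response to Cbx3 siRNA differed between NPCs and ESCs was tested as an interaction. At an adjusted p under 0.05, limma called 0 of the 34 genes and 0% of all genes, with 0 of the 34 and 233 of all genes (1.95%) at an unadjusted p under 0.05. The 3 largest differences between the responses were Ell at 0.33 (95% interval -0.17 to 0.82), Mllt1 at 0.30 (-0.32 to 0.92) and Ctr9 at 0.28 (-0.07 to 0.63). Ell was 4.95 and 6.18 RPKM in ESC control, compared with 3.95 and 5.53 RPKM in ESC Cbx3 siRNA. Mllt1 was 4.62 and 4.32 RPKM in ESC control, 3.46 and 5.55 RPKM in ESC Cbx3 siRNA, 6.001 and 4.92 RPKM in NPC control, compared with 7.18 and 6.48 RPKM in NPC Cbx3 siRNA. Ctr9 was 26.3 and 22.1 RPKM in ESC control, compared with 23.3 and 25.7 RPKM in ESC Cbx3 siRNA. The intervals are wide, and the calls in NPCs are therefore not shown to be particular to NPCs.

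Between the stages themselves, 2 elongation genes differed in control cells: Ell3 was higher and Cdc73 lower in NPCs than in ESCs. This is 2 of 34 (5.88%), against 16% of all genes called, with 1 higher and 1 lower against 10.1% and 5.94% of all genes. The median absolute difference of the 34 genes was 0.18, against 0.26 for all genes. The spread in this test was pooled over all 10 libraries, and in a fit of the 4 control libraries alone 0 of the 34 genes passed. All 4 libraries are of control siRNA, and the stage cannot be told apart from the media, the feeders and the time in culture.

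Ell3 was 5.50 and 4.22 RPKM in ESC control, compared with 8.54 and 8.96 RPKM in NPC control (0.74, SE 0.16, adjusted p = 0.022 by limma). The stages did not overlap, and both NPC Cbx3 siRNA libraries (5.67 and 6.82 RPKM) lay above both ESC control libraries. Cdc73, the parafibromin subunit of the PAF complex, was 5.75 and 6.23 RPKM in ESC control, compared with 3.63 and 3.57 RPKM in NPC control (-0.60, SE 0.09, adjusted p = 0.00793 by limma). All 6 NPC libraries, at 3.23 to 3.78 RPKM, lay below all 4 ESC libraries, at 4.95 to 6.23 RPKM. Of its partners, Paf1, Ctr9 and Leo1 were not lower in NPC control on average, at 29.8, 27.4 and 37.7 RPKM against 25.5, 24.2 and 33.8 RPKM in ESC control, and none of the 3 passed. Rtf1, its other partner, was lower on average in NPC control, at 9.18 RPKM against 10.2 RPKM in ESC control, and did not pass.

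The largest difference between the stages was that of Tcea1, and it did not pass: 16.6 and 37.6 RPKM in ESC control against 11.2 and 11.2 RPKM in NPC control (-1.10, SE 0.40, adjusted p = 0.104 by limma). The ESC Cbx3 siRNA libraries showed the same split, with 19.6 and 41.0 RPKM in replicates 1 and 2. Tcea1 passed when ESC control replicate 1 or either ESC Cbx3 siRNA library was left out. Fibroblast feeder markers were also higher in ESC libraries, and their part in these differences was not tested. Without either NPC control library 0 of the 34 genes passed, without ESC control replicate 1 Cdc73, Ell3 and Tcea1 passed, and without ESC control replicate 2 Ccnt2, Cdc73, Cdk9 and Eaf1 passed and Ell3 did not.

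**Figure D4:**
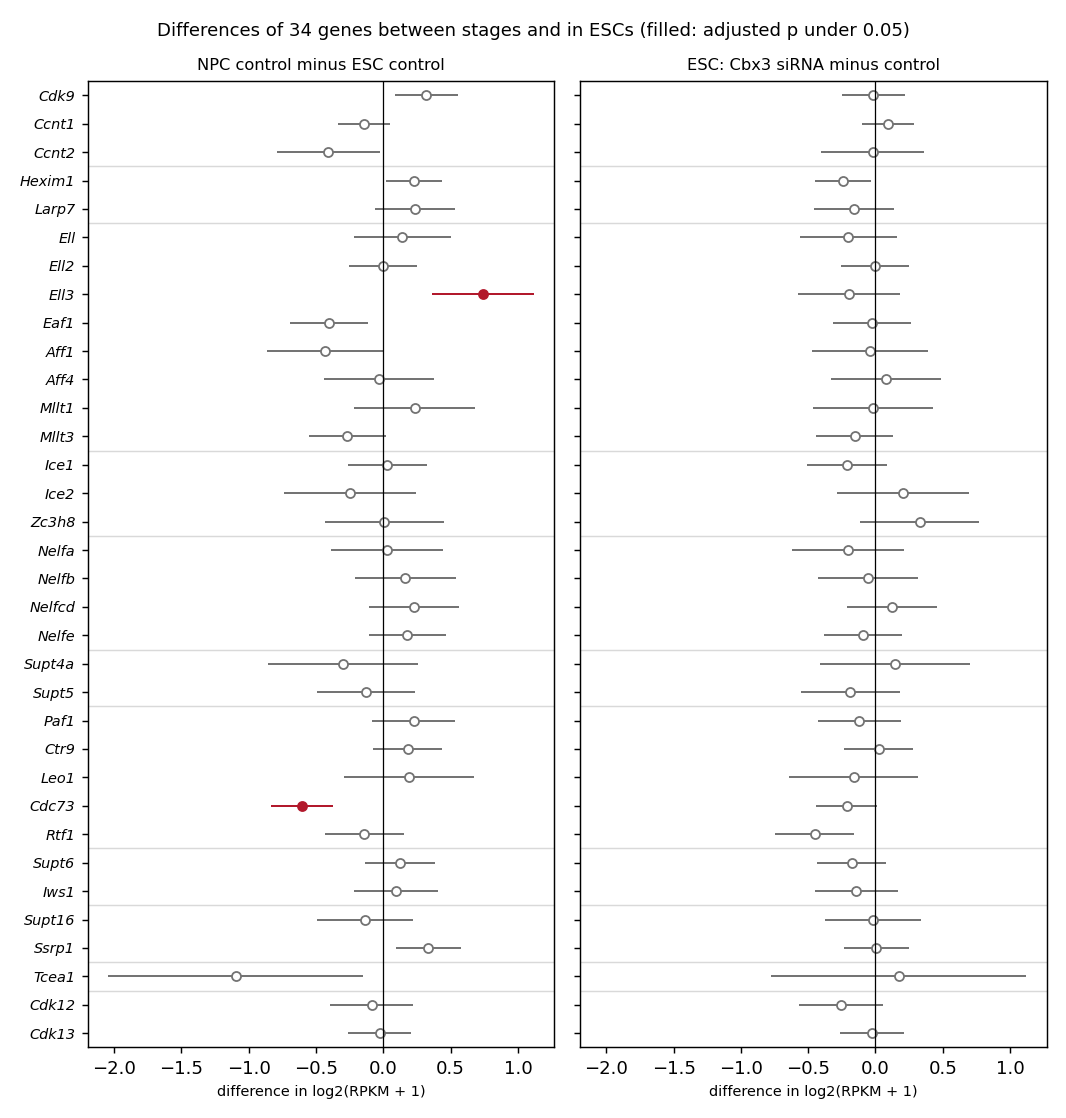
Differences in log2(RPKM + 1) with 95% intervals from limma of the 34 tested elongation factor genes, for NPC control minus ESC control and for Cbx3 siRNA minus control in ESCs; filled red points passed an adjusted p of 0.05. Ell3 (0.74) and Cdc73 (-0.60) passed in the first panel, no gene did in the second, and Tcea1 has the widest interval in both.

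Replicate 2 often differed from replicate 1 in the same direction in the groups of a cell type, for these genes and for all genes. In both ESC groups replicate 2 lay below replicate 1 for 18 of the 34 genes (52.9%, against 44.3% of all genes tested) and above it for 9 (26.5%, against 37.1%). In NPCs the differences were smaller, with replicate 2 below replicate 1 in all 3 groups for 13 of the 34 genes (38.2%, against 22.9% of all genes) and above it for 7 (20.6%, against 27.1%). Nelfa was one of 5 genes lower in replicate 2 in all 5 groups (14.7%, against 7.34% of all genes), at 23.3 and 18.4 RPKM in ESC control, compared with 22.5 and 19.7 RPKM in NPC control. Over all genes tested, the replicate difference correlated at only -0.0685 to -0.0384 between ESC and NPC groups. The median size of the gap over the 34 genes was 0.26 in ESC control and 0.19 in ESC Cbx3 siRNA, and 0.07 to 0.09 in the NPC groups.

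A further 82 genes of the pathway were listed, of which 78 were tested: other 7SK and BET proteins, AF4 and AF10 relatives, polymerase subunits, TFIIS paralogs and elongin, tail kinases and phosphatases, chromatin modifiers of elongation, Integrator, termination factors and genes known for control by pause release. After Cbx3 siRNA in NPCs 3 of the 78 rose and 3 fell (7.69% called, against 13.1% of all genes). The largest changes were those of the immediate early genes Junb, from 16.3 and 16.1 RPKM to 27.9 and 30.8 RPKM (0.81, adjusted p = 0.00168 by limma), and Klf6, from 31.8 and 33.8 RPKM to 48.5 and 50.9 RPKM (0.59, adjusted p = 0.00362 by limma). Of the 11 tested genes known for pause release, 2 rose and 1 fell, 27.3% of a short list. Junb (25.8 and 26.5 RPKM) and Klf6 (41.7 and 43.35 RPKM) also lay above the same control libraries after Med26 siRNA. Their rise is thus not shown to be particular to Cbx3 siRNA.

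After Med26 siRNA 7 of the 78 rose and 2 fell (11.5% called, against 13.4% of all genes). Tcea3, a TFIIS paralog, fell from 21.8 and 23.3 RPKM to 11.03 and 11.02 RPKM (-0.97, adjusted p = 0.00165 by limma), and Eloa, the elongin A gene, rose from 6.60 and 6.66 RPKM to 11.6 and 11.6 RPKM (0.72, adjusted p = 0.00312 by limma). Both lay on the same side of these shared controls after Cbx3 siRNA, Tcea3 at 18.0 and 19.2 RPKM and Eloa at 9.35 and 8.95 RPKM. Polr2a, the largest polymerase II subunit, chosen for mention after its values were seen, rose from 7.84 and 7.68 RPKM to 13.3 and 12.5 RPKM (0.67, adjusted p = 0.00436 by limma), and 1 other of the 13 polymerase subunit genes, Polr2f, fell. The BET protein gene Brd2 had a larger called rise than Polr2a, from 39.1 and 31.0 RPKM to 61.8 and 52.3 RPKM (0.69).

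Between the siRNAs 5 of the 78 were higher and 6 lower after Cbx3 siRNA than after Med26 siRNA (14.1% called, against 18.3% of all genes), with the largest called differences for Tcea3 (0.70, adjusted p = 0.00249 by limma) and the AF10 relative Mllt6 (0.62, adjusted p = 0.0103 by limma; 5.88 and 5.06 RPKM after Cbx3 siRNA, 3.33 and 3.09 RPKM after Med26 siRNA). Between the stages 5 of the 78 were higher in NPC control and 0 lower (6.41% called, against 16% of all genes), led by the stress response gene Atf3 (1.37 and 3.16 RPKM in ESC control, 9.53 and 9.69 RPKM in NPC control, 1.76, adjusted p = 0.0224 by limma) and Jun (2.52 and 5.00 RPKM against 9.58 and 8.62 RPKM, 1.14, adjusted p = 0.0437 by limma). In the ESC comparison and the interaction 0 of the 78 passed by limma, with 0 and 1 at an unadjusted p under 0.05.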

How the data were processed

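RNA was sequenced in 10 libraries, 5 groups of 2. The deposited values are RPKM per RefSeq transcript accession, as the authors computed them. Alignment used TopHat2 2.08 against mm9, per the submitters' processing notes. The counting tool and its strand setting are, like the annotation, not given in the sources used here.

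Of 35860 rows, 99.07% received a symbol, taken from RefSeq genes on GRCm38.p6, and the row with the highest mean RPKM stood for a gene (9 of the 35 genes had more than 1 row). Promoter sequences come from RefSeq on that build, and exon overlaps from GENCODE on GRCm38. Depth was estimated from the step between low RPKM values. Only 68.7% to 73.8% of these lay within 0.1 reads of a whole number, too few to recover whole reads, so no count test was run.

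The test took genes that reached 1 RPKM in 2 or more libraries. The fits of log2(RPKM + 1) used limma 3.58.1 under R 4.3.3 (intensity trend, two-sided, Benjamini-Hochberg over all 11956 genes, threshold 0.05). A pseudocount of 1 RPKM understates the change of low genes. NPC comparisons used the 6 NPC libraries, which share their own spread, and the others all 10. The 35 genes, the other lists, the fits and the sequences searched were chosen with earlier results of these data known. Given in full are genes past the threshold, the 3 largest differences where none passed, paralog families and, of the other pathway genes, the 2 largest called changes per comparison. Alternatives were another pseudocount, 2 other filters, summed rows, median scaling, no trend, a replicate block, other library sets and leaving out each library.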

Additional observations from a re-analysis of the deposited data

How the results depend on the processing

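Depth is an estimate, n = 2 a group, and no direction of a called gene reversed under any alternative. The number of elongation genes past the threshold did change. After Cbx3 siRNA in NPCs it was 5, and 2 with no filter (876 of all genes, against 1570), 3 with no trend, 0 in the fit of all 10 libraries (1 of all genes) and 0 to 2 when 1 library was left out (391 to 1063 of all genes). After Med26 siRNA it was 5, and 2 with no filter (611 of all genes, against 1597), 3 with rows summed, 3 with no trend, 0 in the fit of all 10 libraries (15 of all genes) and 0 to 2 with 1 library left out (164 to 1148 of all genes). Between the siRNAs it was 4, 1 in the fit of all 10 libraries (120 of all genes, against 2185) and 2 to 4 with 1 library left out (560 to 1672 of all genes); with no filter all genes gave 1325. Between NPC and ESC control it was 2, 0 in the fit of the 4 control libraries (47 of all genes, against 1918) and 0 to 4 with 1 library left out (185 to 2699 of all genes). With no filter, Eaf2 passed in both Med26 comparisons. The cause of these shifts was not tested. Pseudocount 0.1, the filter of 5 RPKM and median scaling changed the counts by at most 1, and median scaling moved the median of all genes by less than 0.1.

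A replicate block, in which libraries of 1 cell type share a term for each number, raised the counts to 13 after Cbx3 siRNA in NPCs, 8 after Med26 siRNA, 15 between the siRNAs, 2 after Cbx3 siRNA in ESCs (Cdk12 and Rtf1) and 14 between the stages, and left 0 in the interaction; over all genes it called 3495, 3705, 4234, 813, 6556 and 6. The difference of replicate 2 from replicate 1 correlated over genes at 0.892 between the ESC groups and at 0.423 to 0.461 between the NPC groups, but the labels do not say that equal numbers were handled together, and there are 2 numbers only.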

Other observations

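Across the 10 libraries the paralogs of a family did not keep 1 ratio. Mllt3 supplied 20.5% to 22.4% of the summed RPKM of Mllt1 and Mllt3 in ESC control, 15.2% to 22.4% in ESC Cbx3 siRNA, 13.2% to 13.7% in NPC control, 7.34% to 7.69% in NPC Cbx3 siRNA and 9.73% to 9.99% in NPC Med26 siRNA. The 3 NPC groups did not overlap in this share, although neither gene passed in any NPC comparison by limma. It was chosen for mention after its values were seen. Mllt3 reached 1 RPKM only in the ESC control libraries (1.33 and 1.12 RPKM) and passed the filter through them. In the NPC libraries it lay at 0.513 to 0.909 RPKM, so the share rests on low values there.

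Ccnt1 supplied 41.8% and 50.01% of the cyclin T RNA in ESC control replicates 1 and 2, and 50.4% to 53.8% in the NPC libraries. Ccnt2 was 18.1 and 12.4 RPKM in these ESC control libraries, so the gap between them lies mostly in Ccnt2.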
